A study of Mus musculus with 52 samples.

Results

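The dentate gyrus of mice kept in their home cage for 10 weeks was compared with that of mice kept there for 2 weeks, by small RNA sequencing. The comparison holds 12 of the 52 libraries of the series, chosen by group label alone, with 6 libraries labelled 10wHC_DG and 6 labelled 2wHC_DG. All are from mice of the strain C57B/6JRj, with an age of 20 weeks in the labels of every group. Home cage (HC) mice are the controls of environmental enrichment (EE), housing with added stimulation. The weeks of housing are read from the group labels, which do not say how the 2wHC mice were housed before. The other groups used here are 8 libraries of 10wEE_DG and 5 of 2wEE_DG (dentate gyrus, DG), and 6 each of 10wHC_CA and 2wHC_CA (the cornu ammonis, CA), with 7 of 2wEE_CA and 8 of 10wEE_CA in the CA fit. The region was dissected under a microscope, so a library holds every cell type in that tissue, and fewer cells of a type cannot be told apart from less RNA per cell. Whether every library is a separate animal is not in the labels, and p-values here measure the spread between these libraries, which may be technical.

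MicroRNAs (miRNAs) are short RNAs cut from hairpin transcripts, whose 5′ and 3′ arms (-5p and -3p) can both be kept. An arm loaded into an Argonaute protein pairs through its seed, near the 5′ end, with sites in messenger RNAs and lowers their stability and translation. The dentate gyrus passes input from the entorhinal cortex to the CA fields through its granule cells, and it is one of the few places in the adult mouse brain where new neurons are made.

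The miRNAs on which the main results turn are printed 5′ to 3′ from RefSeq (GRCm38.p6, the mm10 build), with the seed (bases 2 to 8) in capitals. The first set was higher after 10 weeks.
miR-221-3p: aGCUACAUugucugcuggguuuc
miR-129-2-3p: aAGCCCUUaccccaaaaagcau
miR-338-5p: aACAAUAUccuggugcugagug
miR-137-3p: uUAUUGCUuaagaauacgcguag
miR-3102-3p: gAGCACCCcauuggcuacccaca
miR-345-5p: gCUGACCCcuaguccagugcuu
miR-5100: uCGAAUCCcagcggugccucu

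The second set was lower after 10 weeks.
miR-92b-3p: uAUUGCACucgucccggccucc
miR-298-5p: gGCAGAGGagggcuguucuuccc
miR-296-5p: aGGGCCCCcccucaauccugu
miR-423-5p: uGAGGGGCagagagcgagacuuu
miR-668-3p: uGUCACUCggcucggcccacuacc
miR-674-3p: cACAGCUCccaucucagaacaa

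The third set shows the 3 seeds shared by more than 1 of the miRNAs that passed the test.
miR-29a-3p: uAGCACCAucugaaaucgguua
miR-29c-3p: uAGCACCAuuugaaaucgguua
miR-125a-5p: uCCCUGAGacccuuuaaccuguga
miR-125b-5p: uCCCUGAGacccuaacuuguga
miR-351-5p: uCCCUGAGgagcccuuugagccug
let-7b-5p: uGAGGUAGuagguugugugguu
let-7g-5p: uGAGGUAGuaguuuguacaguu

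The last set shows products of 1 hairpin, or of similar hairpins, that moved in opposite directions.
miR-28a-3p: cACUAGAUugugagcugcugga
miR-28a-5p: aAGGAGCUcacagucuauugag
miR-1843a-3p: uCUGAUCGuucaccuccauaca
miR-1843b-3p: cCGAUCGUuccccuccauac
miR-3102-3p.2-3p: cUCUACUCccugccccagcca

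The deposited values are raw read counts for 1900 mature miRNAs. Totals ranged from 1199893 to 3159957 counts in 2wHC_DG and from 1344283 to 2915968 in 10wHC_DG, so that 3 counts correspond to between 0.949 and 2.50 CPM (counts scaled to library size). Between 781 and 915 miRNAs had a count in each library. The most abundant over the 12 libraries was miR-127-3p of the imprinted Dlk1-Dio3 domain, at 127018 ± 10112 CPM (SD, n = 6) after 2 weeks and 128958 ± 16788 CPM after 10 weeks. The neuron-enriched miR-128-3p and miR-153-3p averaged 22090.1 and 4586 CPM, while miR-124-3p, the best-known neuronal miRNA, had 7 counts in all 12 libraries together. Reads aligned to several places entered no miRNA count, and the ones that belong to a given miRNA are not known from these counts.

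The read classes that accompany the counts differed between the 2 housing times. Reads outside any miRNA were 3.89 to 4.45% of all reads in the deposited counts after 2 weeks (4.14% ± 0.221, SD, n = 6) and 5.07 to 6.34% after 10 weeks (5.70% ± 0.502). The 2 ranges do not overlap. This difference was known when the comparison was set up, so it is given as a description. Reads counted to a miRNA fell from 31.2% ± 1.31 to 26.7% ± 2.62 (exact permutation p = 0.00433, or 0.0108 adjusted over the 5 measures compared). Their ranges, 29.5 to 33.5% and 22.5 to 30.0%, overlap slightly. Reads aligned to several places rose from 64.4% ± 1.34 to 67.3% ± 2.35 (exact permutation p = 0.0260, adjusted 0.0433). Both adjusted values count the share outside miRNAs, whose difference was known beforehand, among the 5 measures. The shares are also parts of 1 total, so their tests are not independent, and the adjusted values are descriptive. Ambiguous reads and the total of miRNA counts gave exact permutation p-values of 0.742 and 0.665.

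**Figure D1:**
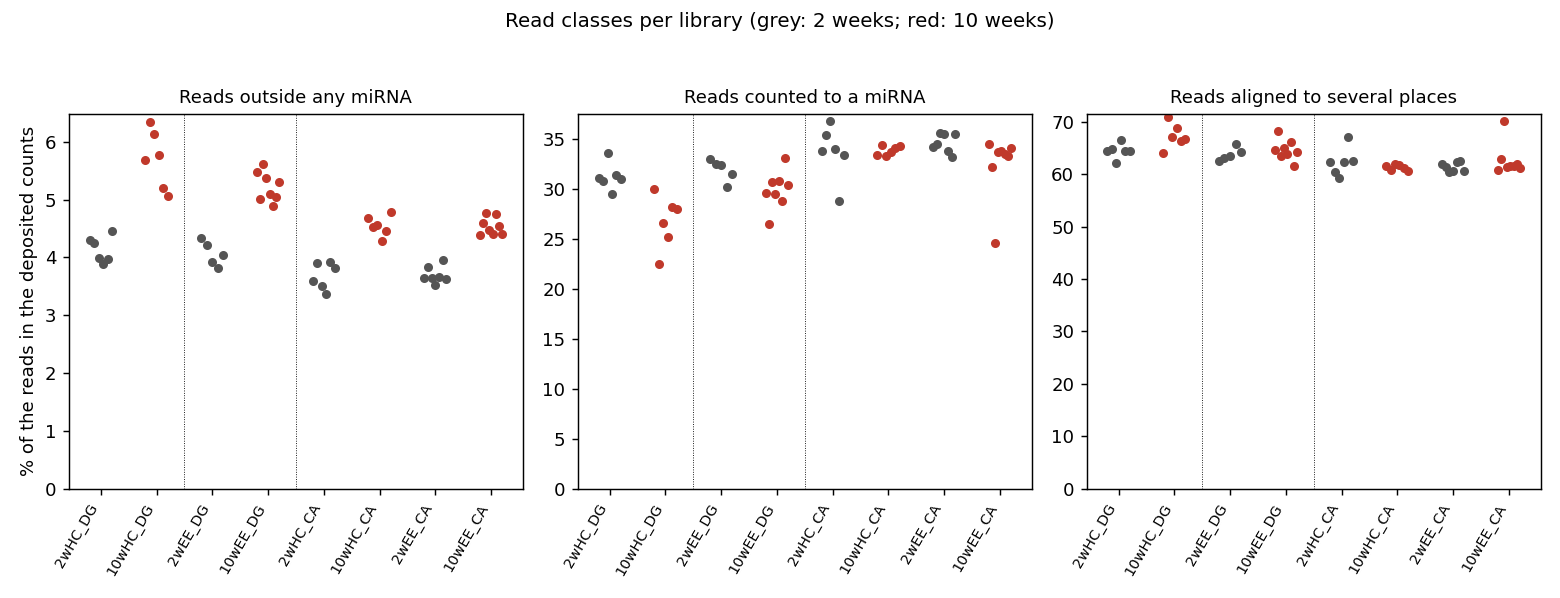
Share of the reads in the deposited counts (%, y axis) that lie outside any miRNA, were counted to a miRNA, or aligned to several places, 1 point per library, for the 8 groups on the x axis. In the left panel the libraries after 10 weeks (red) lie above those after 2 weeks (grey) in both regions and both housings.

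The share outside miRNAs was also higher after 10 weeks in the other groups. It averaged 4.06% in 2wEE_DG against 5.22% in 10wEE_DG, 3.68% in 2wHC_CA against 4.55% in 10wHC_CA, and 3.70% in 2wEE_CA against 4.54% in 10wEE_CA, and in each of these pairs the ranges do not overlap. No stratum of this share therefore holds both times, so within-stratum values cannot be given, and a technical difference between the times cannot be told apart from the housing time.

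Of 525 miRNAs with enough counts, 84 (16%) changed between 2 and 10 weeks in the home cage dentate gyrus, in edgeR's quasi-likelihood test with Benjamini-Hochberg adjusted p under 0.05. There were 40 higher after 10 weeks (7.62%) and 44 lower (8.38%). Changes were small in most cases. The median size of the log2 change was 0.47 among the higher miRNAs and 0.54 among the lower ones, against 0.20 over all 525, and 30 of the 84 changed by more than 1.5-fold and 6 by more than 2-fold. In 24 miRNAs (4.57%) the 6 libraries of one time lay entirely above those of the other, 15 higher (2.86%) and 9 lower (1.71%) after 10 weeks, and 23 of these are among the 84.

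The count depends on single libraries and on the share described above. It was 53 without 2wHC_DG replicate 1, 48 without 2wHC_DG replicate 4, 51 without 10wHC_DG replicate 5 and 55 without 10wHC_DG replicate 6. With total counts in place of TMM scaling, 45 were higher and 23 lower. With the share of reads outside miRNAs as a covariate, 22 were called, 12 of the 84 among them, while 82 of the 84 kept their sign and the median SE of the 84 rose from 0.13 to 0.28.

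Levels below are in CPM after TMM scaling and are given as the lowest, the median and the highest of 6 libraries. A log2 change is the fitted log2 fold change of 10 weeks over 2 weeks, and adjusted p-values are from edgeR's test over the 525 miRNAs.

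The smallest p belonged to miR-221-3p, which is known in other cells for lowering the cell cycle inhibitor Cdkn1b and lies at chrX:19146307-19146329 on the minus strand. Its levels were 4862, 5017 and 5899 after 2 weeks and 8304, 8724 and 10063 after 10 weeks. All 6 libraries after 10 weeks lay above all 6 after 2 weeks. The log2 change was 0.81 ± 0.10 (SE), with an adjusted p of 2.94e-06. The other products of the same cluster did not pass the test: miR-221-5p had a log2 change of -0.20 (adjusted p = 0.185), miR-222-3p of -0.46 (0.0782) and miR-222-5p of -0.29 (0.25), all 3 below 0. At 16150.5 CPM on average, miR-222-3p took more of the counts than miR-221-3p at 7096 CPM, and the summed level of the cluster ranged from 19093 to 30035 CPM after 2 weeks and from 19444 to 26793 after 10 weeks.

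Among the lower miRNAs, miR-92b-3p had the smallest p. It is abundant in neural progenitors, where it lowers Eomes (Tbr2), and lies at chr3:89227126-89227147 on the minus strand. Levels were 37788, 42093 and 53722 after 2 weeks and 24112, 26398 and 29272 after 10 weeks, with no overlap. The log2 change was -0.71 ± 0.09 (SE) (adjusted p = 7.1e-06), a drop of 38.9% in mean level. Its opposite arm, miR-92b-5p, near 21.1 CPM, fell too (-0.59, adjusted p = 0.0471). The miRNA miR-92a-3p has the same seed and comes from the miR-17~92 cluster, which promotes proliferation. It went from 4397, 4672 and 6907 to 3659.8, 4197 and 4551 (-0.26, adjusted p = 0.11) and did not pass. None of the 14 members tested of that cluster and its paralogs passed, 5 had a log2 change above 0, and their median was -0.02, against 0.00 over all 525 miRNAs.

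**Figure D2:**
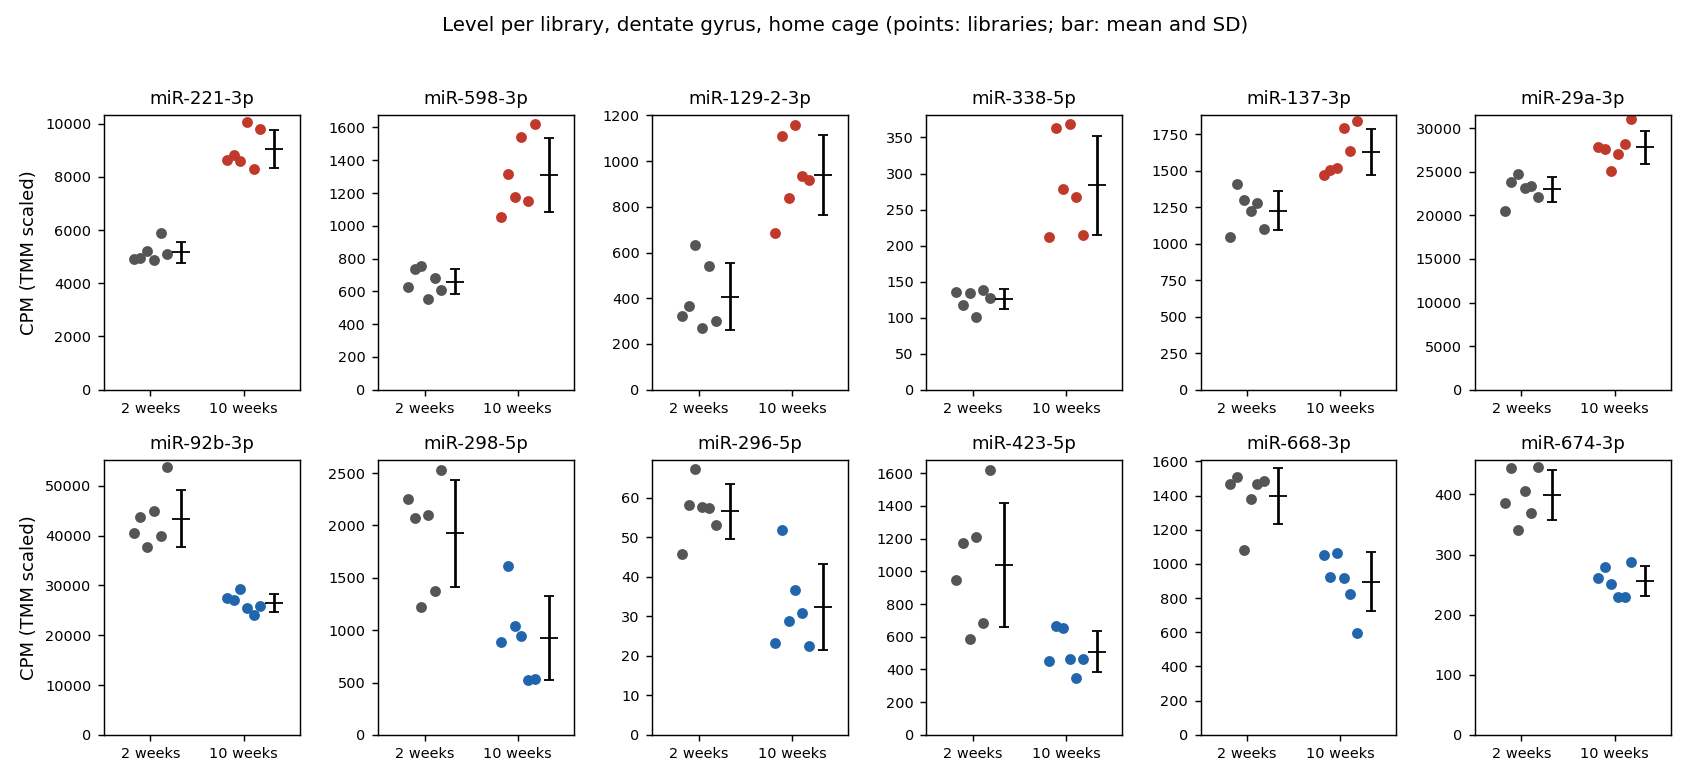
Level per library (CPM, y axis from 0) of 6 miRNAs that rose and 6 that fell, in the 6 home cage dentate gyrus libraries of each time (x axis), with the mean and SD beside the points. For miR-221-3p, miR-598-3p, miR-92b-3p and miR-674-3p the 2 times do not overlap, whereas miR-298-5p, miR-296-5p and miR-423-5p do overlap.

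Of 21 tested products of miRNAs enriched in neurons, 5 rose and 0 fell, where 7.62% of all tested miRNAs rose and 8.38% fell, and their median log2 change was 0.09. The 5 were miR-129-2-3p, miR-129-1-3p, miR-137-3p, miR-218-5p and miR-7a-1-3p. The miR-129 hairpins are known for a part in homeostatic synaptic scaling, miR-137 for neuronal maturation and synaptic transmission, and miR-218 for motor neuron identity. Levels of miR-129-2-3p were 272, 344 and 632 after 2 weeks and 684, 926 and 1157 after 10 weeks. The 2 groups do not overlap, and the log2 change was 1.20 ± 0.21 (SE) (adjusted p = 0.000272). Products of the other miR-129 hairpin were 37.7, 53.2 and 67.0 and 51.7, 77.9 and 107, which overlap, with a log2 change of 0.59 ± 0.16 (SE) (adjusted p = 0.0169). For miR-137-3p, at chr3:118433901-118433923 on the plus strand, all libraries after 10 weeks (1470.4, 1579 and 1844) lay above all after 2 weeks (1046, 1252 and 1411), by 0.41 ± 0.09 (SE) (adjusted p = 0.0062). A rise with overlapping groups was seen for miR-218-5p (0.46, adjusted p = 0.0153), which has 2 identical copies in introns of the axon guidance genes Slit2 and Slit3. The most abundant of the list, miR-128-3p, had a log2 change of -0.21 (adjusted p = 0.236), and the summed level of the list was 27126 to 34224 CPM after 2 weeks and 26500.3 to 32207 after 10 weeks.

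Of the brain-enriched miR-598-3p the levels were 553, 654 and 754 after 2 weeks and 1055, 1246 and 1623 after 10 weeks. The groups do not overlap and the log2 change was 0.99 ± 0.13 (SE) (adjusted p = 7.98e-06). For the activity-induced pair miR-132 and miR-212, which CREB switches on in neurons, none of 4 products passed, and miR-132-3p was at 2784, 3084 and 3586 and 2789, 2958 and 3335. The median of these 4 was -0.12.

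A larger rise was seen for miR-338-5p, at chr11:120014816-120014837 on the minus strand, in an intron of Aatk. Its partner miR-338-3p is known for promoting oligodendrocyte maturation. Levels of the 5′ arm were 101.5, 131 and 137.9 and 211, 273 and 368, with no overlap, and the log2 change was 1.17 ± 0.20 (SE) (adjusted p = 0.00024). The 3′ arm, at 2086 CPM on average, had a log2 change of 0.08 (adjusted p = 0.608), and the miR-219 products of the same cell type did not pass. Of the 5 oligodendrocyte markers tested, 1 was called, where 16% of all tested miRNAs were. Their summed level was 2169 to 2670.4 CPM after 2 weeks and 2290 to 3836 after 10 weeks.

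The largest change was that of miR-5100, at chr11:60728698-60728718 on the plus strand in an intron of Mief2. It is a scarce product, with 0.93, 2.04 and 3.34 CPM after 2 weeks and 7.92, 16.3 and 35.1 after 10 weeks. The groups do not overlap, although the levels after 2 weeks lie near the level of 3 counts. Its log2 change was 3.17 ± 0.51 (SE) (adjusted p = 0.000167). Among these 12 libraries only those after 10 weeks reach the level asked by the low-count filter. It was therefore tested because it is high there, and its p adds no support to the rise. Both arms of miR-345, in an intron of Slc25a47, rose without overlap, by 0.82 for miR-345-5p (adjusted p = 0.00286) and 0.50 for miR-345-3p (adjusted p = 0.0022). Another rise was that of miR-3535 (0.54, adjusted p = 0.00145), which lies within an exon of the nucleolin gene Ncl.

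The imprinted pair miR-298 and miR-296, at chr2:174267553-174267575 and chr2:174267093-174267113 on the minus strand, lies near the Gnas locus. Levels of miR-298-5p were 1217, 2086 and 2525 after 2 weeks and 525.5, 917 and 1609.7 after 10 weeks. One library of 10 weeks lay above the lowest of 2 weeks, so the groups overlap, with a log2 change of -1.06 ± 0.22 (SE) (adjusted p = 0.0022). The scarcer miR-296-5p went from 45.9, 57.6 and 67.3 to 22.4, 29.9 and 51.9, by -0.84 ± 0.20 (SE) (adjusted p = 0.00852). A fall of similar size was seen for miR-423-5p, from an intron of Nsrp1, at 589, 1062 and 1618 and 349, 467 and 665 (-1.03 ± 0.27 (SE), adjusted p = 0.0153), also with overlap. Without overlap, miR-674-3p fell by 0.64, miR-1249-3p by 0.62 and miR-501-3p by 0.55 in log2 units (adjusted p = 0.000272, 0.000981 and 0.0022).

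The imprinted Dlk1-Dio3 domain on chromosome 12 holds the most tested miRNAs of any locus, and most did not pass. Over all tested miRNAs 7.62% rose and 8.38% fell. In its proximal part 0 of 26 rose and 3 fell (miR-540-3p, miR-673-3p and miR-370-3p, by 0.48, 0.46 and 0.45), with a median of -0.08. In the distal cluster 3 of 59 rose and 3 fell, with a median of 0.02. The 3 that rose were miR-382-5p (0.57), miR-329-3p (0.70) and miR-134-5p (0.39), the last of which is known for limiting dendritic spine size through Limk1. The 3 that fell were miR-668-3p, miR-485-5p and miR-409-5p. Of the 25 fits that leave out 1 library, the call of miR-134-5p was kept in 9 and that of miR-409-5p in 13. Levels of miR-668-3p were 1079.5, 1468 and 1507 after 2 weeks and 599, 921 and 1063 after 10 weeks, without overlap, and its log2 change was -0.64 ± 0.13 (SE) (adjusted p = 0.0022). Summed over the distal cluster the levels were 39405 to 49112 CPM and 37177 to 46618 CPM.

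Some seeds had more than 1 called member, and they are described here for that reason, so the shared direction of those members is a description. The seed of miR-125, the mammalian counterpart of worm lin-4, is carried by 3 tested miRNAs, and all 3 fell: miR-125a-5p by 0.29, miR-125b-5p by 0.33 and miR-351-5p by 0.58 in log2 units (adjusted p = 0.022, 0.0197 and 0.0247). The very abundant miR-125a-5p was at 65466, 72887 and 91392 and 53607, 62502 and 68200.5, with overlap. In mice after enrichment the same 2 main members were at 0.07 and 0.03 and did not pass. Over the 11 tested products of miR-125 and miR-99/100, 2 fell, none rose and the median was -0.07, where 8.38% of all tested miRNAs fell.

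The miR-29 family, known for lowering DNA methyltransferases and collagens, had a log2 change above 0 in all 7 tested products, with a median of 0.21, and 2 passed the test. Of all 525 tested miRNAs 263 were above 0 and 7.62% rose. Levels of miR-29a-3p were 20522, 23298 and 24746 after 2 weeks and 25095, 27757 and 31008 after 10 weeks, without overlap, and the log2 change was 0.27 ± 0.07 (SE) (adjusted p = 0.00743). For miR-29c-3p it was 0.25 ± 0.07 (SE) (adjusted p = 0.0247). The third miRNA with this seed, miR-29b-3p, has 2 hairpins and had a log2 change of 0.12 (adjusted p = 0.857).

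Of 18 tested products of let-7, a family that marks differentiated cells, 5 rose and 0 fell, against 7.62% and 8.38% of all tested miRNAs, with a median of 0.06 and 11 above 0. In the enriched mice 0 of the 18 were called, where 9.9% of all 525 miRNAs were, and their median was -0.10. The main arm let-7b-5p was at 5679, 6119 and 8745 and 7075, 8484 and 10233, with overlap (0.38 ± 0.10 (SE), adjusted p = 0.0153). The call of let-7g-5p (0.26, adjusted p = 0.0471) was kept in 16 of the 25 fits that leave out 1 library, and the others that rose were the minor arms let-7i-3p, let-7f-2-3p and let-7g-3p. Of 9 tested miRNAs with the let-7 seed, 2 rose and 6 were above 0, and the most abundant, let-7i-5p, had a log2 change of 0.10 (adjusted p = 0.699).

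In the remaining families few members passed the test, where 7.62% of all tested miRNAs rose and 8.38% fell. In the miR-181 family 2 of 8 fell, the 3′ arms miR-181a-2-3p (-0.45, adjusted p = 0.0127) and miR-181c-3p (-0.22, 0.0443, kept in 12 of the 25 fits that leave out 1 library), with a median of -0.13. Of 8 products of the miR-23/27/24 clusters 1 rose, miR-23b-3p (0.32, adjusted p = 0.0202), with a median of 0.07. Of 13 in the miR-15/16 family 1 rose, miR-16-5p (0.63, adjusted p = 0.0471), and 1 fell, miR-195a-3p (-0.53, 0.0262), with a median of 0.08. The call of miR-16-5p was kept in 7 of the 25 fits that leave out 1 library. The miR-30 family (10 tested), the miR-148 and miR-152 family (6), the miR-344 family (3) and the Sfmbt2 cluster families (4) held none that passed, with medians of 0.04, -0.03, 0.01 and 0.15. Among the most abundant miRNAs that did not pass, miR-22-3p had a log2 change of -0.16, miR-30a-5p of 0.12, miR-27b-3p of 0.00 and miR-191-5p of 0.03.

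**Figure D3:**
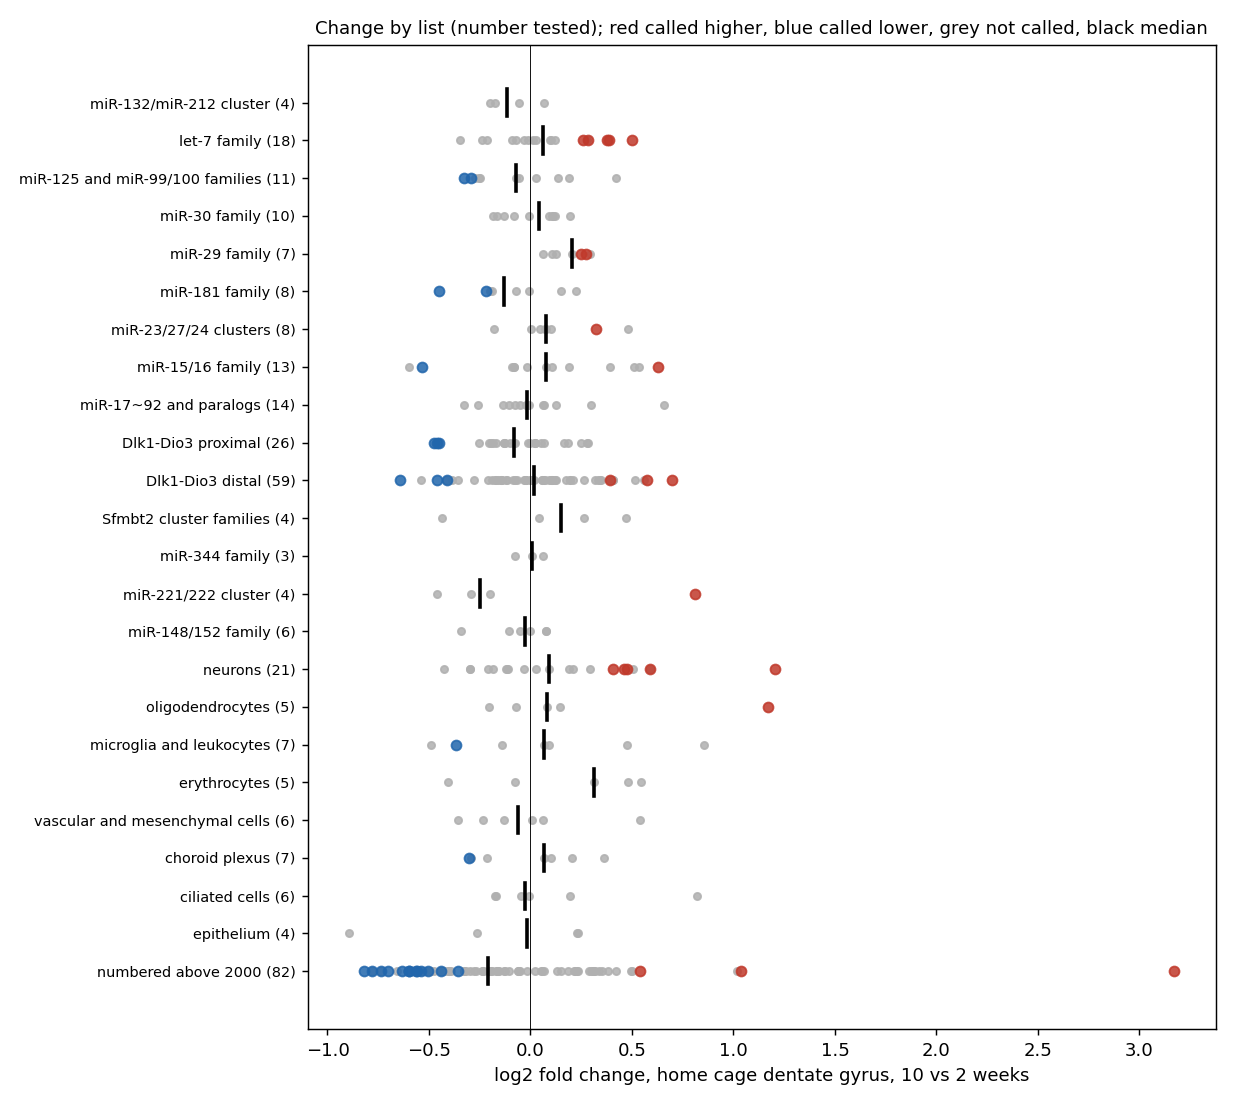
Log2 fold change in the home cage dentate gyrus (x axis, 10 weeks over 2 weeks) of every tested member of each list with at least 3 tested members (y axis, number tested in brackets), with called miRNAs in red (higher) or blue (lower) and the median as a black line. The let-7 and neuron lists hold red points only among those called, the lists numbered above 2000 and Dlk1-Dio3 proximal hold mostly or only blue ones.

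Mature miRNAs of high registry number, above miR-2000, are mostly scarce and were found late. Of 82 tested 13 fell and 3 rose, against 8.38% and 7.62% of all tested miRNAs, and their median log2 change was -0.21, against 0.00 over all 525. Besides miR-5100, the 3 that rose include miR-3102-3p, which lies at chr7:100882307-100882329 on the minus strand within an exon of Arhgef17. It went from 59.6, 84.1 and 95.7 to 119, 169.9 and 204, without overlap (1.04 ± 0.17 (SE), adjusted p = 0.00023). The neighbouring product of the same hairpin, miR-3102-3p.2-3p, at chr7:100882330-100882350, fell (-0.36 ± 0.12 (SE), adjusted p = 0.0471), though that call was kept in 13 of the 25 fits that leave out 1 library.

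Both arms were tested for 154 hairpins, and their log2 changes had the same sign in 82. At least 1 arm was called in 41 hairpins and both in 5. Over all 525 tested miRNAs 263 had a log2 change above 0 and 16% were called. The counts for arms lie near what unrelated miRNAs would give, and no result about arms is drawn from them. Of these 5, let-7g and miR-345 rose in both arms, miR-674 and miR-92b fell in both, and miR-28a moved in opposite directions. The 3′ arm miR-28a-3p rose from 47.4, 59.2 and 78.8 to 78.9, 89.2 and 108 without overlap (0.61 ± 0.13 (SE), adjusted p = 0.00238), while miR-28a-5p went from 232, 279 and 377 to 172, 207 and 267 (-0.44 ± 0.12 (SE), adjusted p = 0.0198). Between similar hairpins on different chromosomes, miR-1843a-3p rose (0.76 ± 0.20 (SE), adjusted p = 0.0153) and miR-1843b-3p fell (-0.78 ± 0.20 (SE), adjusted p = 0.012), each without overlap between the times.

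Few markers of other cell types were called, which does not show that their levels were the same at both times. Of all tested miRNAs 16% were called. None of 5 erythrocyte, 6 vascular and mesenchymal, 6 ciliated cell, 4 epithelial, 2 sensory and pineal, 2 hindbrain and spinal cord and 1 striated muscle and liver markers tested was called, with medians of 0.32, -0.06, -0.03, -0.02, 0.15, -0.23 and -0.53. Their summed levels overlapped: 194 to 297 CPM and 213 to 516 for erythrocytes, 841 to 1459 and 749.9 to 1109 for ciliated cells, 13.3 to 102 and 9.78 to 44.8 for epithelium, 82.6 to 127 and 54.0 to 192 for sensory and pineal cells, 185 to 789 and 159 to 623 for hindbrain and spinal cord, and 4.58 to 11.5 and 5.37 to 8.76 for muscle and liver. The sum of the vascular markers ranged from 14277 to 68263 CPM after 2 weeks and from 14075 to 46183 after 10 weeks, nearly all of it miR-143-3p of smooth muscle (-0.23 ± 0.44 (SE), adjusted p = 0.771). In the hindbrain list miR-10b-5p had medians of 119 and 39.0 CPM (-0.55 ± 0.80 (SE)), while miR-10a-5p was at 0.10. Between 10 and 2 weeks in the enriched dentate gyrus, 2 of the 5 erythrocyte markers were called, with a median of 0.50. In that comparison 9.9% of all 525 miRNAs were called.

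In 2 lists 1 member fell, where 8.38% of all tested miRNAs fell. Of 7 choroid plexus markers this was miR-204-5p, from an intron of Trpm3, at 14430.0, 17258 and 23602 and 11954, 15214 and 15663 (-0.30 ± 0.10 (SE), adjusted p = 0.0471). That call was kept in 18 of the 25 fits that leave out 1 library. The more specific choroid plexus markers miR-448-3p and miR-1298-5p were at 16.8 and 65.9 CPM on average and did not pass, and the list had a median of 0.07 and a sum of 14606 to 23710.3 CPM after 2 weeks and 12172 to 15763 after 10 weeks. Of 7 microglia and leukocyte markers it was the lymphocyte miRNA miR-150-5p (-0.36 ± 0.12 (SE), adjusted p = 0.0471), a call kept in 17 of those 25 fits. The rest did not pass. Above 0 were miR-155-5p at 0.86, miR-142-3p at 0.48, miR-223-3p at 0.09 and miR-142-5p at 0.07. Below 0 were miR-146a-5p at -0.14 and miR-150-3p at -0.49. The list had a median of 0.07 and a sum of 3147 to 4856 CPM and 2609 to 3475. At 0 counts in all 12 libraries were miR-133a-3p and miR-1a-3p of muscle, miR-196a-5p of the hindbrain list and miR-219a-5p of oligodendrocytes. Reads aligned to several places entered no count, so these zeros do not show that the miRNAs were absent. What part other cell types had in the changes was not tested.

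The enriched mice give the same comparison of 10 with 2 weeks in other libraries of the dentate gyrus. These are in the same fit as the home cage libraries, so both comparisons share its filter, scaling and estimate of the spread. There 52 of 525 (9.9%) were called, 24 higher (4.57%) and 28 lower (5.33%), although the count was 22 without 2wEE_DG replicate 4 and 14 without 2wEE_DG replicate 5. Called in both housings were 36, which is 42.9% of the home cage calls and 69.2% of the enriched ones, 18 higher in both and 18 lower in both. Of the 84 home cage calls 80 had the same sign after enrichment, against 396 of all 525. The median log2 change after enrichment was 0.35 for the miRNAs called higher in the home cage and -0.41 for those called lower, against -0.02 over all. Across the 525 miRNAs, which share the libraries, Pearson's r was 0.66 and Spearman's rho 0.66.

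Leading members had the same sign in both housings. In the enriched mice miR-221-3p was at 0.75 (adjusted p = 1.41e-05), miR-92b-3p at -0.53 (0.000629), miR-298-5p at -1.21 (0.000846) and miR-598-3p at 0.73 (0.000944), all from edgeR. Values nearer 0 than in the home cage were found for miR-5100 at 1.44 (0.12), miR-338-5p at 0.60 (0.0517) and miR-501-3p at -0.12 (0.54), which did not pass there. The difference between the housings was itself tested, and edgeR called 0 of 525 (21 at an unadjusted p under 0.05), as did DESeq2 and limma's voom, and it called 0 without each of the 25 libraries in turn.

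**Figure D4:**
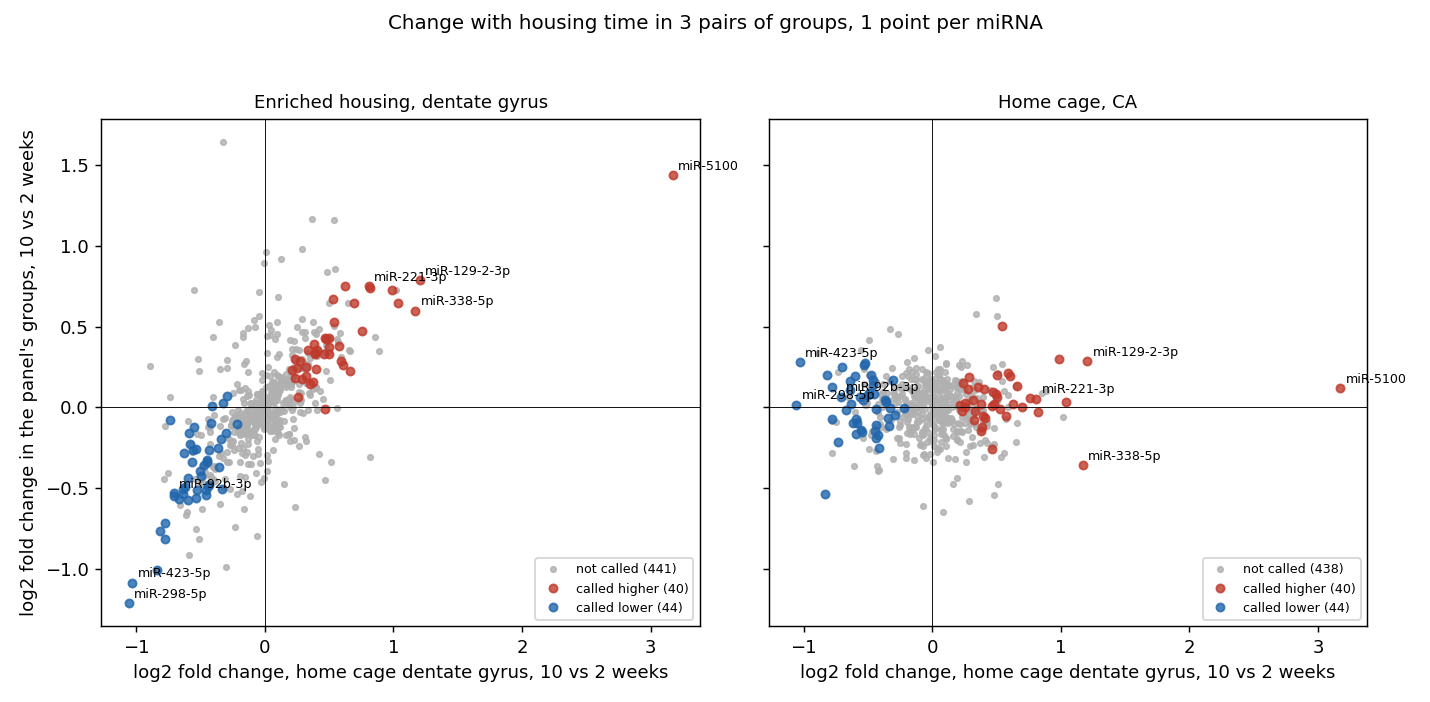
Log2 fold change of 10 over 2 weeks in the home cage dentate gyrus (x axis) against that in the enriched dentate gyrus (left, 525 miRNAs) and in the home cage CA (right, 522), 1 point per miRNA, coloured by the call in the home cage dentate gyrus. In the left panel the points lie along a rising line (Spearman's rho 0.66), and in the right panel they do not (-0.02).

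In the home cage CA edgeR called 0 of 581 miRNAs between 10 and 2 weeks (0%), with 35 (6.02%) at an unadjusted p under 0.05. DESeq2 called 3 and limma's voom 0. The count was 12 of 580 (2.07%) without 10wEE_CA replicate 3, the shallowest library of the fit at 480792 counts, and 2 without 2wHC_CA replicate 1. Of the 84 dentate gyrus calls 48 had the same sign in CA, against 252 of all 522 measured in both. Their median log2 change in CA was 0.03 for those higher and 0.02 for those lower in the dentate gyrus. Across the 522 miRNAs Pearson's r was 0.01 and Spearman's rho -0.02.

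The difference between the regions was tested over all 52 libraries. For 13 of 593 miRNAs (2.19%) the time difference differed between the dentate gyrus and CA, with 8 more positive (1.35%) and 5 more negative (0.843%) in the dentate gyrus, and it did for 42 of 594 (7.07%) without 10wEE_CA replicate 3. The count was 8 without 2wHC_DG replicate 1 or replicate 6, 22 without 2wHC_DG replicate 3, and 24 without 2wHC_DG replicate 5 or 10wHC_DG replicate 2. Of the 13, 11 are among the 84. Positive differences included those of miR-5100 (3.05, edgeR adjusted p = 0.0215), miR-338-5p (1.503, 0.000532), miR-129-2-3p (0.89, 0.0274), miR-221-3p (0.73, 0.000672), miR-598-3p (0.66, 0.0274) and let-7b-5p (0.50, 0.0132). Negative ones included miR-423-5p (-1.33, 0.0408), miR-1843b-3p (-0.92, 0.047) and miR-674-3p (-0.83, 0.00719). The difference of miR-92b-3p was -0.80 and did not pass (0.119). As above, the p of miR-5100 adds no support, because it was tested in the dentate gyrus for being high after 10 weeks.

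The levels in CA show this for single members. In CA miR-221-3p was at 3289, 3522 and 3872 CPM after 2 weeks and 3192, 3713 and 4172 after 10 weeks, with overlapping groups. For miR-338-5p the CA levels were 304, 405 and 525 and 240.5, 304 and 385, again overlapping, at a log2 change of -0.36. CA and dentate gyrus were scaled in separate fits, so that these levels are comparable within a region only.

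Base composition differed between the miRNAs that rose and those that fell. Of the 525 tested, 463 matched a RefSeq sequence. The median share of G and C was 45.5% in the 36 higher ones with a sequence, 58.1% in the 38 lower ones and 47.8% in all 463. Under 40% G and C, 8 of 72 rose and 0 fell, and from 40 to 50% 14 of 164 rose and 6 fell. From 50 to 60% 9 of 139 rose and 17 fell, and at 60% or more 5 of 88 rose and 15 fell. Spearman's rho of the log2 change with this share was -0.34 in the home cage dentate gyrus, -0.35 in the enriched dentate gyrus and 0.05 in the home cage CA (460 miRNAs). Among the sequences printed above this share runs from 34.8% in miR-137-3p to 61.9% in miR-5100 for those that rose, and from 45.5% in miR-28a-5p to 66.7% in miR-296-5p, miR-668-3p and miR-3102-3p.2-3p for those that fell, so that the 2 directions overlap.

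**Figure D5:**
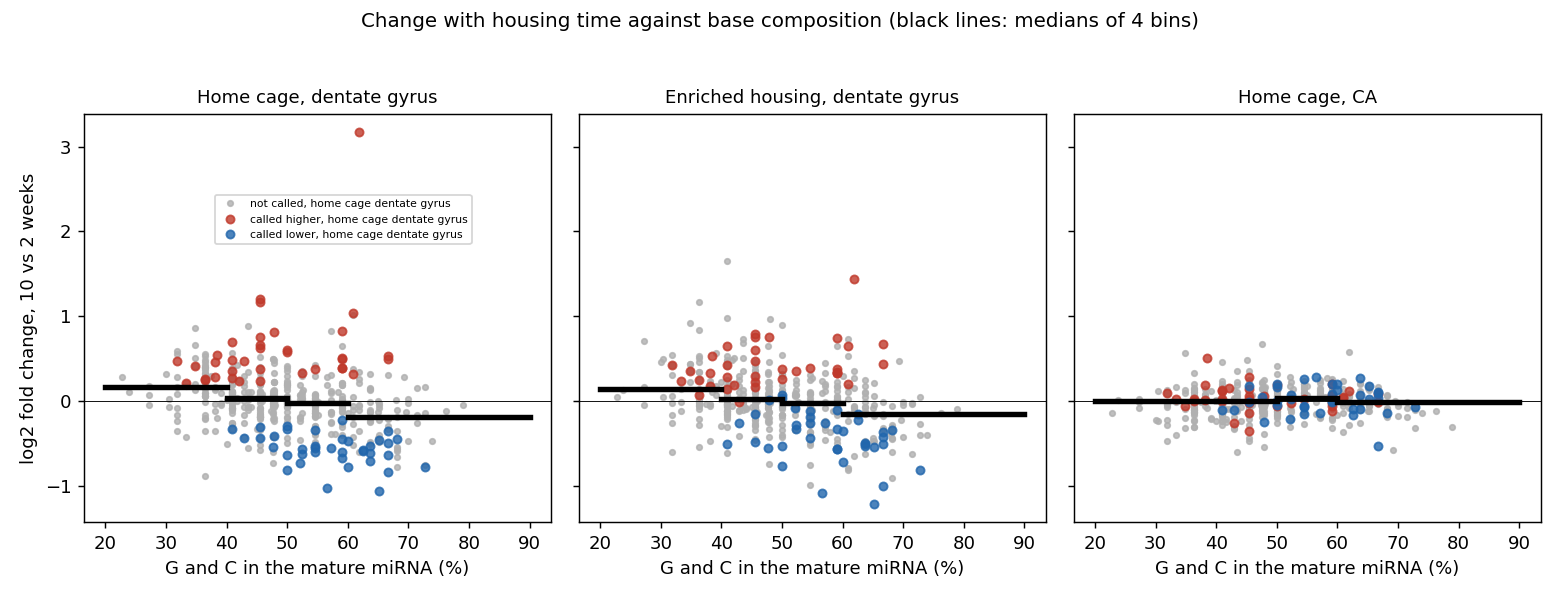
Log2 fold change of 10 over 2 weeks (y axis) against the share of G and C in the mature sequence (x axis, %), 1 point per miRNA with a RefSeq sequence, in 3 pairs of groups, coloured by the call in the home cage dentate gyrus. The medians of 4 bins (black) fall from 0.17 to -0.18 in the home cage dentate gyrus and lie near 0 in CA.

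With the trend on this share removed, an alternative added after the data were seen, 58 of 463 were called, 30 higher and 28 lower, against 74 (36 and 38) of the same 463 without removal. Of the 74, 49 kept the call and all 74 kept the sign. Among those called without the removal alone were miR-29c-3p (0.25, and 0.12 after removal), let-7g-5p (0.13 after removal) and miR-351-5p (-0.42 after removal). The length of the mature miRNA had a Spearman's rho of 0.05 with the fold change. By first base, 17 of 190 starting with U rose and 17 fell, and 6 of 130 starting with A rose and 10 fell.

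Members that fell were often more abundant in the dentate gyrus than in CA. This was read from 2wEE_DG against 2wEE_CA, a choice made after the values were seen. These libraries are in neither group of the home cage comparison, although 2wEE_DG is part of the fit it comes from. There 149 of the 525 were higher and 174 lower in the dentate gyrus (edgeR, adjusted p under 0.05). Of the 44 miRNAs that fell after 10 weeks, 26 were higher in the dentate gyrus and 1 lower, and of the 40 that rose 9 were higher and 14 lower. Examples of the first kind are miR-298-5p, miR-423-5p, miR-92b-3p, miR-204-5p and miR-181a-2-3p, with region log2 differences of 1.65, 1.83, 0.68, 1.48 and 1.05. Examples of the last kind are miR-338-5p (-1.62), miR-345-5p (-1.05) and miR-129-2-3p (-0.86). Both leading rises, miR-221-3p and miR-598-3p, go the other way at 0.40 and 0.35. Over the 525 Spearman's rho of the 2 measures was -0.34. How cleanly the regions were cut at each time was not tested.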

How the data were processed

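Small RNA was measured in 52 libraries. The authors' tools, per the submitters' processing notes, were HTSeq, STAR, cutadapt and CASAVA 1.8.2, on build mm10. The miRNA annotation, like the remaining versions, is not given in the sources used here. Per the labels' protocols, RNA was extracted with Tri reagent, treated with DNase and made into TruSeq libraries. The deposited values are raw counts per mature miRNA. The 5 closing rows of each count table, which name no miRNA, enter neither library sizes nor tests and are given as shares of the reads (unaligned reads were 0 in the deposited counts of every library, so the shares leave them out).

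Groups come from the sample titles. The quasi-likelihood F test of edgeR 4.0.16 (scaling by TMM, low counts removed by filterByExpr, two-sided, Benjamini-Hochberg adjusted p under 0.05) was run in R 4.3.3 on the 25 DG libraries, the 27 CA libraries, or all 52 for the test between regions. The biological coefficient of variation in DG was 18%. Alternatives were DESeq2 1.42.0, limma 3.58.1 (voom), other scalings and filters, a fit of the 2 groups, covariates, a replicate block and each library left out. Read shares were compared by exact two-sided permutation tests (scipy 1.17.1). The fit of the home cage comparison was tested on simulated data with 200 changed miRNAs: it called 13.2% of those with a log2 change of 0.25, 57.6% at 0.5 and 90.9% at 1, and 0.617% of those not changed. Among the 30 pairs of libraries within the 2 groups 0 held identical values, and counts differed by more than sampling noise (the lowest chi-square over its degrees of freedom was 13.4). Limits from 3 counts cover counting error only.

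Named were the 12 called miRNAs with the smallest p in each direction, the 5 with the largest change and the 5 most abundant in each direction, the 10 most abundant of all, and the called (or else the most abundant) members of 27 lists. Members and lists were chosen with earlier results of these data known. Opposite arms, seed partners and a few further list members were named after their values were seen. Names matched RefSeq for 1603 of 1900 miRNAs, and host genes are from GENCODE release M21. Of the 84 called miRNAs, miR-218-5p, miR-125b-5p and miR-16-5p come from 2 hairpins each and can have lost reads that align to both.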

Additional observations from a re-analysis of the deposited data

Results flagged for a closer look

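In 4 of the 76 groups of 6 libraries checked, 1 library stood far from its group, where chance alone gives about 1 in 20. The check covered only part of the miRNAs named in the report. Outside it, replicate 2 of 10wHC_DG had 102946 CPM of miR-22-3p, with the other libraries of its group at 76109 to 83734. After 2 weeks, replicate 5 had 5899 CPM of miR-221-3p (group median 5017), replicate 3 had 1079.5 CPM of miR-668-3p (1468), and replicate 6 had 8745 CPM of let-7b-5p (6119). After 10 weeks, replicate 5 had 347 CPM of miR-181a-2-3p (430.4). Those of miR-221-3p, miR-668-3p and let-7b-5p lie on the side of the other housing time, and that of miR-181a-2-3p lies away from it.

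For 13 miRNAs the time difference in the home cage differed between the dentate gyrus and CA (edgeR, adjusted p under 0.05, all 52 libraries). On the log2 scale, dentate gyrus minus CA, the difference was 3.05 for miR-5100, 1.503 for miR-338-5p, 0.99 for miR-24-1-5p, 0.89 for miR-129-2-3p, 0.73 for miR-221-3p, 0.70 for miR-33-5p, 0.66 for miR-598-3p and 0.50 for let-7b-5p. It was -1.33 for miR-423-5p, -0.92 for miR-1843b-3p, -0.84 for miR-3086-5p, -0.83 for miR-674-3p and -0.82 for miR-195a-3p. Of these, miR-24-1-5p and miR-3086-5p are not among the 84 miRNAs called in the dentate gyrus alone.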

How the results depend on the processing

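The home cage count of 84 (40 higher, 44 lower) was 51 with no filter (24 lower), 55 in a fit of the 2 groups (26 and 29), 22 with the share of reads outside miRNAs as a covariate (8 and 14), and 23 were lower with total counts and 28 with the GC trend removed. The cause of these shifts was not tested, beyond the wider spread of the covariate fit and the number of miRNAs tested, 1316 with no filter and 477 in the fit of the 2 groups. Other scalings, DESeq2 (89), voom (82) and a mean of 10 CPM (84) stayed within 1.5 times. With 1 library left out the count ranged from 48 to 91 (higher 24 to 44, lower 24 to 47), and that of the enriched mice from 14 to 74 (4 to 32 and 10 to 44). Of the 63 named miRNAs that were called, 32 kept the call without each library in turn. In every alternative run, 9 did: miR-221-3p, miR-598-3p, miR-218-5p, miR-29a-3p, miR-92b-3p, miR-298-5p, miR-296-5p, miR-668-3p and miR-3060-3p. Of these, miR-598-3p matched no RefSeq sequence and was not tested with the GC trend removed. With the covariate miR-409-5p turned to a log2 change of 0.076 (adjusted p 0.906).

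In CA the count of 0 was 2 with no filter (1 and 1), 3 with DESeq2 (1 and 2), 8 in a fit of the 2 groups (6 and 2), and 0 to 12 with 1 library left out (0 to 5 and 0 to 7). The difference between regions, 13 (8 and 5), was 27 with DESeq2 (13 and 14), 44 in the home cage libraries alone (22 and 22) and 8 to 42 with 1 library left out (5 to 23 and 2 to 19, highest without 10wEE_CA replicate 3), with 3 lower under total counts, 2 with no filter and 3 with voom. The rise of reads aligned to several places (2.93 percentage points) ranged from 2.21 to 3.58 with 1 library left out and lost its call in 4 of 12 cases (unadjusted exact permutation p = 0.0519).

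Library numbers did not pair the 2 home cage groups of the dentate gyrus: the correlation of same-numbered deviations was -0.11 to 0.21 and above 0.1 in 1 of 6, and 1 of 12 libraries correlated best with its own number. Between same-numbered dentate gyrus and CA libraries of a home cage group it was -0.21 to 0.44 and above 0.1 in 6 of 12, and 11 of 24 libraries correlated best with their own number, a hint of pairing from the data, not the design. With a replicate block the home cage count was 85 (41 and 44, 76 shared), that of the enriched mice 54, and the difference between regions 8 (5 and 3). Removing the GC trend, using miRNAs with a RefSeq sequence alone (74 called) and leaving libraries out of the tests between regions and between housings were chosen after seeing the data. At the depth, spread and group size of these libraries, changes of 0.25 on the log2 scale were mostly missed in the simulation.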
